A study of Mus musculus with 14 samples.

Results

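The genes of the translation initiation and elongation factors were examined in the lactating mammary gland of wt/Wap-Tbrg4 mice. They were taken as every listed gene whose symbol starts with Eif1 to Eif6, Eef1 or Eef2, without the Eif2ak kinases, and numbered 61 of 20550 listed genes. Total RNA-seq of mammary tissue was available from 2 mice on day 10 of lactation (L10), here replicate 1 and replicate 2. Both mice had the same genotype, with 1 wt allele and 1 Wap-Tbrg4 allele, in which a CRISPR-Cas9 deletion joined the *Wap* super-enhancer, promoter and first exon to the body of *Tbrg4*. The founder zygotes were C57BL/6, and the ages of the 2 mice were not given in the sources used here. The genotype is that given by the labels, and the names of the deposited tables abbreviate it differently. With a single genotype there was no comparison between groups and no test, and all differences between the mice describe the spread of n = 2. The spread may be biological or technical.

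Translation starts when an initiator tRNA, carried by eIF2 and GTP, joins the small ribosomal subunit together with eIF1, eIF1A, eIF3 and eIF5. The eIF4 proteins bind the mRNA cap, hold the mRNA and unwind it, and after the start codon is found, eIF5B brings in the large subunit. eIF2B reloads eIF2 with GTP and is the point at which stress kinases slow initiation. During elongation eEF1A delivers each aminoacyl-tRNA, the eEF1B proteins reload eEF1A with GTP, eEF2 moves the ribosome by a codon, and eIF5A helps at difficult sequences. The lactating gland makes large amounts of milk protein, and its secretory cells depend on this machinery. Several genes selected by symbol are no factors themselves. They comprise the inhibitory eIF4E-binding proteins, the eIF4E transporter *Eif4enif1*, the eEF2 kinase *Eef2k*, the methyltransferases *Eef1akmt1*, *Eef1akmt2* and *Eef2kmt*, and *Eef1e1*, a member of the multi-tRNA synthetase complex.

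The deposited values were FPKM of exons and of introns, which are scaled per length, so genes can be set side by side only roughly. Exons were merged over all transcripts of a gene. Levels may also depend on base composition and on near-identical copies, both described below. The depth of the 2 libraries is unknown without read counts, and the precision of every value rests on the 2 mice. *Tbrg4*, the gene placed under *Wap* control, had an exon FPKM of 314.7 in replicate 1 and 291.5 in replicate 2. All 7 markers of secretory epithelium reached a mean exon FPKM of at least 1, as did 4 of 5 for myoepithelium (*Acta2* was listed at 0), 5 of 5 for adipocytes, 4 of 4 for endothelium, 3 of 5 for immune cells, 4 of 5 for skeletal muscle and 0 of 4 for neurons. The summed exon FPKM of these lists was 338357 and 875621 for secretory epithelium, where *Csn2* was higher in replicate 2 and the keratin genes *Krt8* (31.4 and 14.6) and *Krt18* (145.0 and 57.6) were lower. It was 112.6 and 71.3 for myoepithelium in replicates 1 and 2, 634.1 and 719.5 for adipocytes, 50.5 and 43.7 for endothelium, 113.0 and 94.9 for immune cells, and 25.2 and 9.7 for skeletal muscle. The 2 listed red cell markers had 271.2 and 294.8. The part of cell composition in the factor values was not tested. The tissue therefore held several cell types, and in such bulk RNA fewer cells of a type and less RNA per cell cannot be told apart.

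Almost the whole machinery was detected, and most of it at moderate levels. Of the 61 genes, 56 (91.8%) had a mean exon FPKM of at least 1, the level used below as detection, compared with 48.0% of all 20515 genes with a usable symbol. A mean of at least 10 was reached by 36 factor genes, and 15.2% of all genes did so. Only *Eef1a1*, *Eef2* and *Eif4b* exceeded a mean of 100. The median mean exon FPKM of the 56 detected factor genes was 20.1, compared with 5.7 over the 9845 detected genes. Since the 56 were kept by this level, their median is no measure of all 61.

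**Figure D1:**
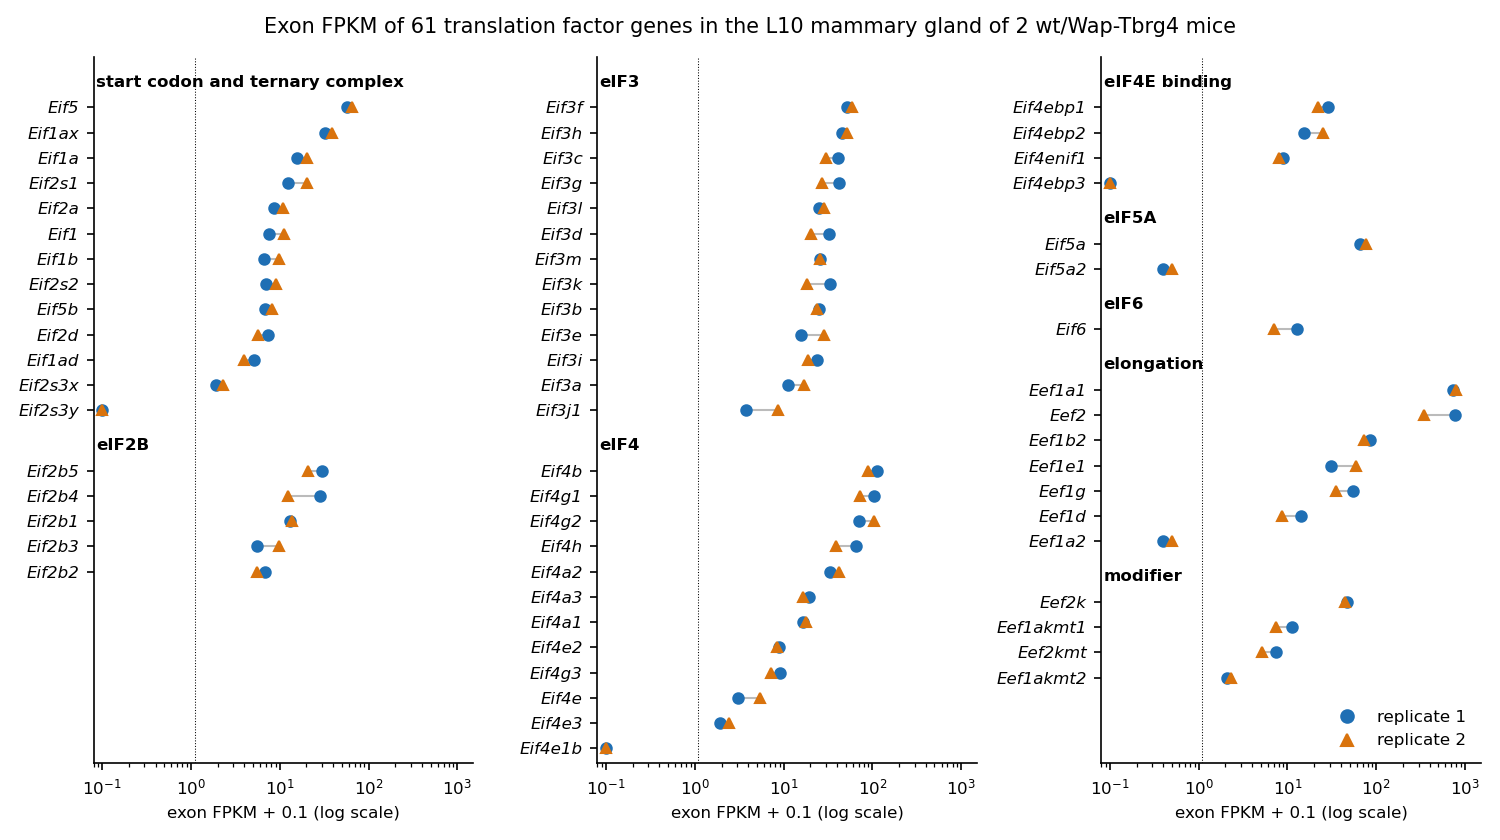
Exon FPKM + 0.1 (log axis) of each of the 61 genes by factor class, with replicate 1 as circles, replicate 2 as triangles and a grey line joining the 2 mice; the dotted line marks an FPKM of 1. *Eef1a1* and *Eef2* stand highest, and *Eif2s3y*, *Eif4e1b* and *Eif4ebp3* are listed at 0 in both mice.

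The 5 genes below detection were each a relative of a detected factor. *Eef1a2*, the eEF1A form of muscle and neurons, had an exon FPKM of 0.3 and 0.4, and *Eif5a2*, the minor eIF5A form, also had 0.3 and 0.4. *Eif4e1b*, the oocyte eIF4E, *Eif4ebp3* and *Eif2s3y* were listed at 0 in both mice. *Eif2s3y* lies on the Y chromosome and the animals were lactating females. A value listed at 0 in a table with 1 decimal does not show that a gene was silent.

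Elongation factors made up the largest class by RNA level. The summed exon FPKM of the 7 genes was 1680 in replicate 1 and 1317 in replicate 2, or 57.0% and 51.8% of the sum over all 61 genes. The 7 include *Eef1e1* (30.5 and 59.7), which is no elongation factor itself. *Eef1a1* (chr9:78478453-78481724 in GRCm38, minus strand) had 731.2 and 799.7, a mean of 765 ± 48.4 (SD, n = 2) and rank 29 among all genes. *Eef2* (chr10:81176631-81182509, plus strand) had 764.1 and 340.6. The order of the 2 genes thus differed between the mice, with an *Eef1a1* to *Eef2* ratio of 0.957 in replicate 1 and 2.35 in replicate 2. *Eef1a1* was similar in both mice and *Eef2* was not.

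The genes of the exchange complex that reloads eEF1A were well below eEF1A itself. *Eef1b2* had an exon FPKM of 85.2 and 73.2, *Eef1g* had 54.1 and 34.7, and *Eef1d* had 14.1 and 8.5. The levels kept the order *Eef1b2*, *Eef1g*, *Eef1d* in both mice, with an *Eef1b2* to *Eef1d* ratio of 6.04 and 8.61. *Eef1e1* had 30.5 and 59.7 and was one of the genes that differed most between the mice. *Eef2k*, which phosphorylates and inhibits eEF2, had 46.2 and 44.3, the highest of the 4 modifier genes, and the *Eef2* to *Eef2k* ratio was 16.5 and 7.69. The methyltransferases of the elongation factors were lower, from 2.0 and 2.2 for *Eef1akmt2* to 11.0 and 7.3 for *Eef1akmt1*.

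The 13 eIF3 subunits form a large scaffold on the small ribosomal subunit. All 13 were detected, with a summed exon FPKM of 375.3 and 355.2 and a median of 25.7 and 25.5. *Eif3f* was highest at 51.5 and 59.2, followed by *Eif3h* at 45.8 and 51.1. *Eif3j1*, which encodes a loosely bound subunit, was lowest at 3.7 and 8.5. The ratio of the highest to the lowest subunit was 13.9 and 6.96, and without *Eif3j1* it was 4.64 and 3.50. *Eif3j1* has a near-identical copy, described below, so its exon value and the ratio to it are uncertain. *Eif3a*, the largest subunit, was next to lowest at 11.1 and 16.9.

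Within the eIF4 class, RNA levels of the main scaffold genes and of the helicase cofactors were above that of the cap-binding protein. *Eif4b*, a cofactor of the eIF4A helicase, had an exon FPKM of 112.8 and 88.9, and *Eif4h*, a related cofactor, had 65.7 and 39.3. The scaffold *Eif4g1* had 105.3 and 72.7, and *Eif4g2*, a scaffold that does not bind eIF4E, had 70.1 and 104.1. A further scaffold, *Eif4g3*, was lower at 9.1 and 7.2. The cap-binding *Eif4e* had only 3.0 and 5.3, so the *Eif4g1* to *Eif4e* ratio was 35.1 and 13.7. *Eif4e* has a copy without introns on chromosome X at 98.6% identity. Its exon value and the ratios to it are therefore uncertain, as described below for near-identical copies. *Eif4e2* had 8.7 and 8.3, above *Eif4e* in both mice, and *Eif4e3* had 1.8 and 2.3. *Eif4ebp1*, which holds eIF4E back when mTOR is inactive, had 28.4 and 22.0, or 9.47 and 4.15 times the *Eif4e* value. *Eif4ebp2*, with the same function, had 15.1 and 24.7, and the order of the 2 inhibitors differed between the mice. *Eif4enif1* had 8.8 and 7.9.

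The helicase itself is encoded by *Eif4a1* and *Eif4a2*, and the second was the higher by exons. *Eif4a1* (chr11:69666936-69672423, minus strand) had an exon FPKM of 16.5 and 17.7, and *Eif4a2* (chr16:23107468-23114132, plus strand) had 33.1 and 42.4, a ratio of 0.458 ± 0.0573 (SD, n = 2). *Eif4a3*, the related helicase of the exon junction complex, had 19.1 and 16.3. The *Eif4a1* value is uncertain for a reason of sequence, given below with the near-identical copies.

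The class that selects the start codon and loads the initiator tRNA had a summed exon FPKM of 168.3 and 204.3, and 10 of its 12 detected genes were higher in replicate 2, compared with 42.5% of all detected genes. Of these 12 genes, 8 had an exon GC content under 45%, and all 8 were among the higher ones. None of the 12 was higher when the sums over all genes were made equal, a scaling described below with the differences between the mice. *Eif5*, the GTPase activator of eIF2, was highest at 57.8 and 65.0. *Eif1ax* had 32.4 and 38.5 and its autosomal relative *Eif1a* had 15.5 and 20.4, a ratio of 2.09 and 1.89. The 3 subunits of eIF2, which form one complex, had unequal levels. *Eif2s1* (alpha) had 12.3 and 20, *Eif2s2* (beta) 6.9 and 9.0, and *Eif2s3x* (gamma) only 1.8 and 2.2. The *Eif2s1* to *Eif2s3x* ratio was 6.83 and 9.09. All 3 genes have near-identical copies elsewhere in the genome, described below, so their exon values and this ratio are uncertain. *Eif5b*, which joins the subunits, had 6.7 and 8.0, while *Eif2a* and *Eif2d*, both linked to initiation without eIF2, had 8.6 and 10.7, and 7.3 and 5.6. The eIF1A-related *Eif1ad* had 5.0 and 3.9.

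*Eif1* and *Eif1b*, which encode nearly the same start codon factor, had almost equal levels. *Eif1* had an exon FPKM of 7.5 and 11.2 and *Eif1b* had 6.5 and 9.8, so the ratio of 1.15 and 1.14 was stable although both were higher in replicate 2. This ratio was added after the values were seen. The coding sequences are both 342 bp long and 81.3% identical, with 64 differing bases. *Eif1* also has near-identical copies, given below, so its exon value and this ratio are uncertain. The first 90 coding bases from RefSeq on GRCm38 (5′ to 3′) show how the 2 genes can be told apart, with the 13 differing bases of this stretch in capitals.
Eif1: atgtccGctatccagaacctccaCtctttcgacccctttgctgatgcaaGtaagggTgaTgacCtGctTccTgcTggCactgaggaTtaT
Eif1b: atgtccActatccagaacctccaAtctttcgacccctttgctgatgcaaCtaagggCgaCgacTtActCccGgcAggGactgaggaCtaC

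The 5 eIF2B genes were all detected. *Eif2b5*, which encodes the catalytic epsilon subunit, was highest at 29.7 and 20.5, and *Eif2b2* was lowest in replicate 2 at 6.8 and 5.5, with *Eif2b3* at 5.5 and 9.6. *Eif2b1* was similar in both mice at 12.9 and 13.8, whereas *Eif2b4* had 28.2 and 12.3. *Eif5a*, the substrate of hypusine modification, had 65.1 and 76.6, at 217 and 191.5 times *Eif5a2*. *Eif6*, which keeps free large ribosomal subunits apart from small ones, had 12.8 and 6.9.

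For some factors with a close relative, a single form held nearly all of the RNA, and for others both were present. The *Eef1a1* to *Eef1a2* ratio was 2437 and 1999, although the coding sequences are 79.96% identical. The *Eef1a2* and *Eif5a2* values lie near the rounding step of 0.1, so these ratios give only an order of size. *Eif4g1* was 11.6 and 10.1 times *Eif4g3*. Both forms were detected for *Eif4a1* and *Eif4a2* (77.8% identical) and for *Eif1ax* and *Eif1a*, and levels were close for *Eif1* and *Eif1b*. The exon values of *Eif4a1* and *Eif1* are uncertain because of near-identical copies, described below, and so are these comparisons for them.

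Intron reads of total RNA-seq include unspliced RNA, and their level relative to exons was low for most factors. All 56 detected factor genes had an intron FPKM above 0 in both mice, and 16 (28.6%) had a mean of at least 1, compared with 15.9% of all detected genes. With 0.1 added to each value, the log2 of intron over exon FPKM had a median of −4.55 and −4.21 over the factor genes in the 2 mice, compared with −3.62 and −3.51 over all detected genes. The 2 sets were not matched for exon level, which was higher in the factor genes (median 20.1, compared with 5.7). *Eef1a1* was an extreme case, with an intron FPKM of 1.6 and 0.1 beside the exon values of 731.2 and 799.7. *Eef2* had an intron FPKM of 2.4 and 1.4, and its exon value was 318 and 243 times as high.

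A small group of eIF4 genes had the highest intron values. *Eif4a2* had an intron FPKM of 32.2 and 38.4, close to its exon FPKM, with an intron to exon ratio of 0.973 and 0.906. *Eif4a1* had 30.8 and 14.1, a ratio of 1.87 and 0.797. *Eif4g2* had 9.0 and 38.6, a ratio of 0.128 and 0.371. These 3 genes held 60.5% and 66.6% of the summed intron FPKM of all 61. Only *Eif4a1* had a mean intron FPKM above its mean exon FPKM, 1 of 56, while the same held for 0.295% of all detected genes. Its exon value is uncertain because of near-identical copies, described below, and so is its ratio. Among the detected genes, the mean ratio of *Eif4a1* lay at percentile 99.8 and that of *Eif4a2* at 99.6, while *Eif4g2* was less extreme at 94.6.

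The introns of these genes contain genes for small nucleolar RNAs (snoRNAs), short guide RNAs that are cut out of introns and direct the modification of ribosomal and other RNAs. By the GENCODE M21 annotation, 8 of the 56 detected factor genes (14.3%) host at least 1 snoRNA gene, compared with 2.21% of all detected genes. *Eif4a2* hosts 5, which cover 18.4% of its intron length, and *Eif4a1* hosts 3, which cover 11.9%. *Eif4g2* hosts 1, covering 2.31%. The other hosts are *Eef1b2*, *Eef2*, *Eif4g1*, *Eif5* and *Eif3a*. The median log2 intron to exon ratio was −4.06 and −3.87 over the 8 hosts, and −4.64 and −4.27 over the other 48 factor genes. Hosts such as *Eef2* and *Eif4g1* had low ratios, so a snoRNA gene did not go with a high intron to exon ratio in every host. Their exon values were high, and their intron FPKM was 2.4 and 1.4 for *Eef2* and 2.3 and 1.7 for *Eif4g1*. The part of snoRNA sequence in these values was not tested, since the files give 1 intron value for a whole gene.

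Box C/D snoRNAs of 3 hosts are shown here (GRCm38, 5′ to 3′) because they lie within the intron sequence that was counted. Capitals mark the C box TGATGA, where an exact match lies near the start, and the last CTGA, the D box. *Snord2* held no exact C box in its first 20 bases.
Snord37 in *Eef2*, chr10:81178950-81179013, plus strand: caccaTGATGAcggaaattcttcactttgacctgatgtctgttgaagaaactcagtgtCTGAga
Snord66 in *Eif4g1*, chr16:20684239-20684313, plus strand: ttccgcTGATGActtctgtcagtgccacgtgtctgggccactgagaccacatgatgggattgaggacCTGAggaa
Snord2 in *Eif4a2*, chr16:23108953-23109021, plus strand: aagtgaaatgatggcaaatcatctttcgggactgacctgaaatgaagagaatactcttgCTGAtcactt

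**Figure D2:**
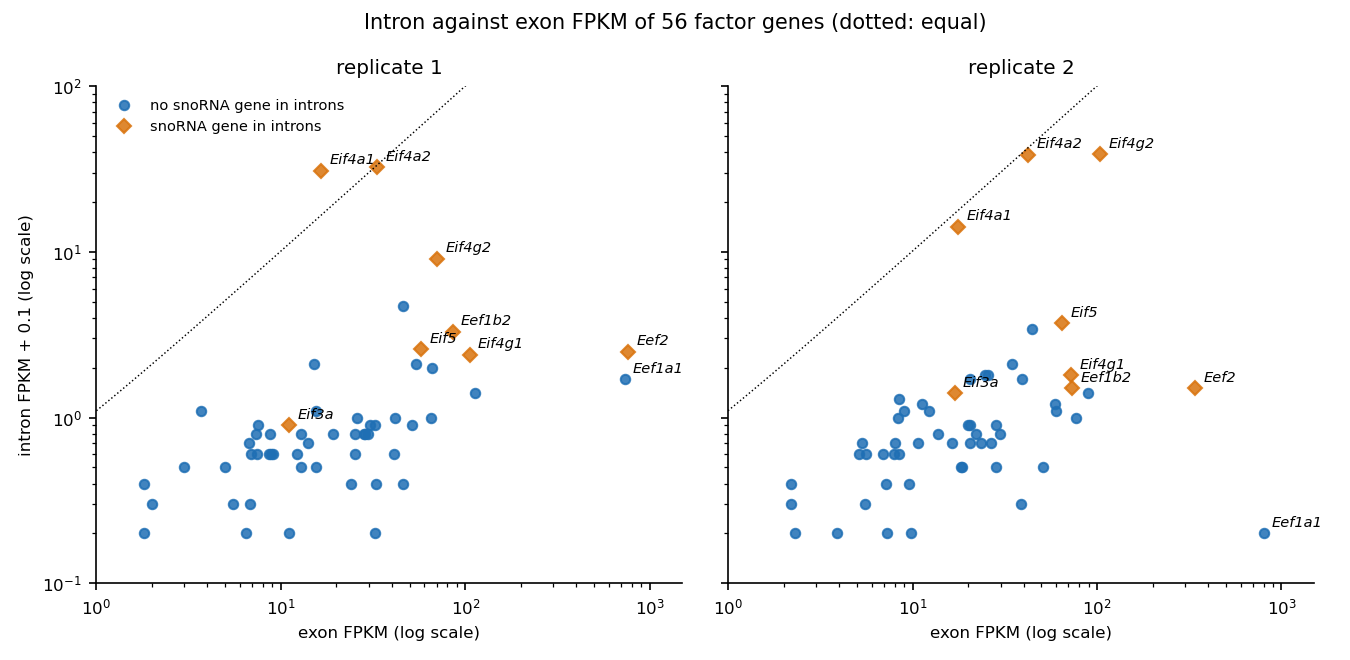
Intron FPKM + 0.1 against exon FPKM (both log axes) of the 56 detected factor genes, with replicate 1 on the left and replicate 2 on the right; diamonds are genes with a snoRNA gene in an intron and the dotted line marks equal values. *Eif4a1* and *Eif4a2* lie near the line in both mice, and *Eif4g2* moves up from 9.0 to 38.6.

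Intron values differed between the mice in a few factors. Among the 16 factor genes with mean exon and intron FPKM of at least 1, the intron value differed more than 2-fold in 3 (18.8%), compared with 7.42% of all 1563 such genes. *Eif4g2* was 4.29-fold higher in replicate 2 by introns, and its exon FPKM of 70.1 and 104.1 differed less. *Eif4a1* was 2.18-fold lower in replicate 2 by introns, while its exon FPKM was nearly equal. *Eef1b2* had 3.2 and 1.4. For the exon FPKM, *Eif4a2* (5.02% of exon length), *Eif5b* (15.9%) and *Eef2kmt* (21.8%) were among 8 factor genes with exons that overlap those of a gene on the opposite strand in RefSeq. The libraries were stranded, but how the counting used strand is not given in the sources used here.

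Many factor genes have near-identical copies elsewhere in the genome, mostly processed pseudogenes. The coding sequence of 15 of the 56 detected factor genes (26.8%) aligned to at least 1 other place over 50% or more of its length at 95% identity or more, compared with 6.98% of the 9690 detected genes with a coding sequence. There were 41 such places, of which 39 lacked introns and 37 overlapped a RefSeq pseudogene. *Eif1* had 15 copies, *Eef1a1* 7, and *Eef1g* and *Eif4a3* 3 each. How reads that map to several places were treated is not given in the sources used here, so the exon FPKM of these genes is uncertain.

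The 6 factor genes with a copy of at least 99% identity were *Eef1g*, *Eif4a1*, *Eif1*, *Eif2s2*, *Eif3j1* and *Eif2s3x*. Among them were the lowest eIF3 subunit and the lowest eIF2 subunit. *Eif2s3x* matched the pseudogene *Gm2223* (chrX:33505660-33507010) at 100% identity, *Eif4a1* matched *Eif4a-ps4* (chr1:60703932-60705152) at 99.9%, and *Eif2s2* matched *Gm9892* (chr8:52196061-52197056) at 99.5%. *Eif3j1* matched *Eif3j2*, an annotated protein-coding gene without introns, at 100%. The median exon FPKM of these 6 was 7.2 and 10.1, compared with 25.7 and 28.4 over the 9 genes with a copy of 95 to 99% identity and 23.9 and 18.6 over the 41 genes without a copy. Over all detected genes, the medians of the mean exon FPKM in the same 3 classes were 4.45, 8.2 and 5.75. The median log2 intron to exon ratio of the mean values was −2.78 for the 6 genes, −4.98 for the 9 and −4.38 for the 41, and −2.86, −3.93 and −3.58 over all genes. The split at 99% was chosen after the values were seen. *Eef1a1*, the factor gene with the highest mean, had 7 copies of up to 97.3% identity. The part of such copies in the values was not tested.

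**Figure D3:**
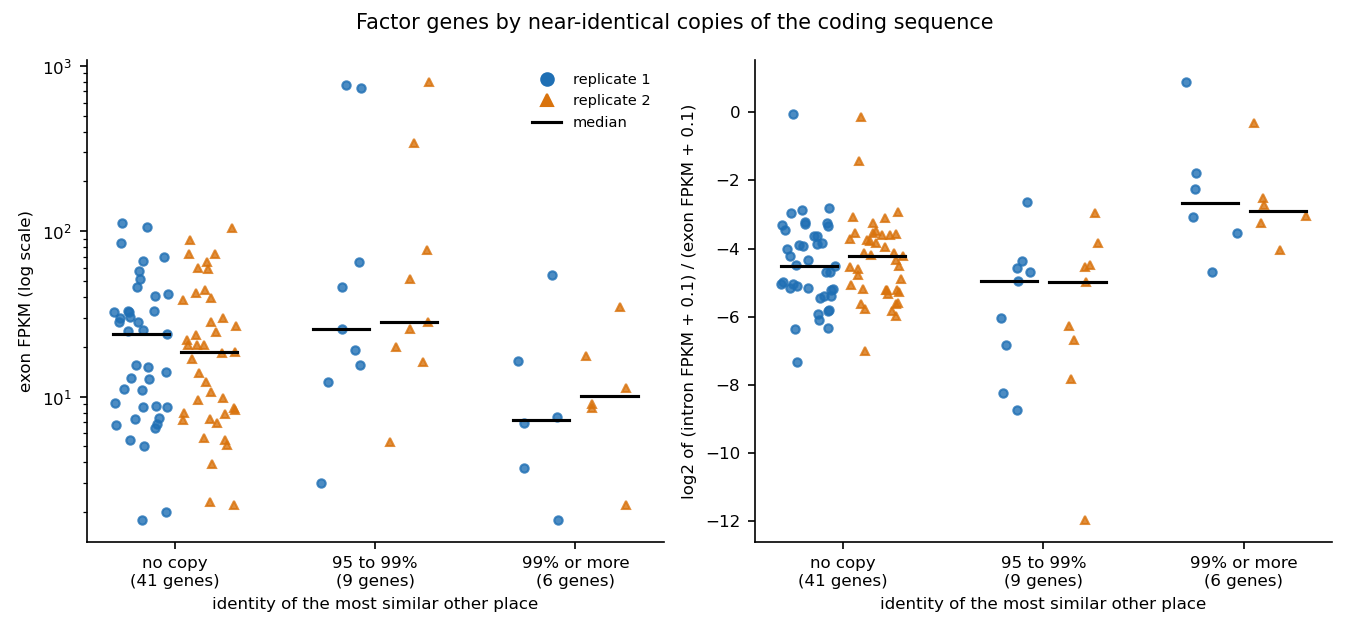
Exon FPKM (left, log axis) and log2 intron to exon ratio with 0.1 added (right) of the 56 detected factor genes, grouped by the identity of the most similar other place of the coding sequence; circles are replicate 1, triangles replicate 2 and black lines medians. The 6 genes with a copy of at least 99% identity have the lowest median exon FPKM, 7.2 and 10.1, and the highest median ratio.

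The sum over all 61 factor genes was close in the mice, 2949 and 2540, and the difference between the mice in single factors depended on the scaling. The difference between the mice was expressed as the log2 of FPKM + 1 in replicate 2 over that in replicate 1. It was past 2-fold in 3 of the 56 detected factor genes (5.36%), compared with 5.9% of all 9845 detected genes, so in the deposited scaling the share was near that of all genes. *Eef2* and *Eif2b4* were lower in replicate 2, with log2 ratios of −1.16 and −1.13, and *Eif3j1* was higher, with 1.02. Of the 56 genes, 28 were higher and 28 lower in replicate 2, while 42.5% of all detected genes were higher, and 40 (71.4%) were within 1.5-fold, compared with 75.7% of all. These directions hold for the deposited scaling and when the sums outside the 10 highest genes are made equal (29 higher and 27 lower). When the sums over all genes, 852961 and 1788120, are made equal, all log2 ratios of FPKM shift by −1.07, and only *Eif3j1* stays higher in replicate 2. In that scaling 27 of 56 factor genes (48.2%) were past 2-fold, compared with 39.7% of all genes. *Csn2* alone had 108555 and 481937, and the factors' share of all exon FPKM was 0.346% and 0.142%, but 1.69% and 1.51% outside the 10 highest genes.

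The differences between the mice followed the base composition of the exons. Over the 56 factor genes, Spearman's rho between the log2 ratio and the GC content of RefSeq exons was −0.717, and over 9839 detected genes it was −0.659. These are correlations across genes of the same 2 libraries, and genes are not independent replicates. Of 17 factor genes with a GC content under 45%, 16 were higher in replicate 2, among them *Eif3j1* (40.7%), *Eef1e1* (41.0%), *Eif3e* (39.9%) and *Eif4e* (40.6%). Of 11 with at least 55%, 3 were higher, and *Eef2* (57.0%) and *Eif2b4* (57.4%) were both lower. After a lowess fit to GC content was subtracted, *Eef2* had a log2 ratio of −0.63, *Eif2b4* −0.57 and *Eif3j1* 0.66. *Eif4ebp2* (55.1% GC) was then past 2-fold, at 1.06. *Eif4ebp1*, with a similar GC content (57.2%), had 0.19, so the 2 inhibitors still differed from each other after the correction. With the correction, 1 of 56 factor genes (1.79%) and 1.91% of all genes were past 2-fold.

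**Figure D4:**
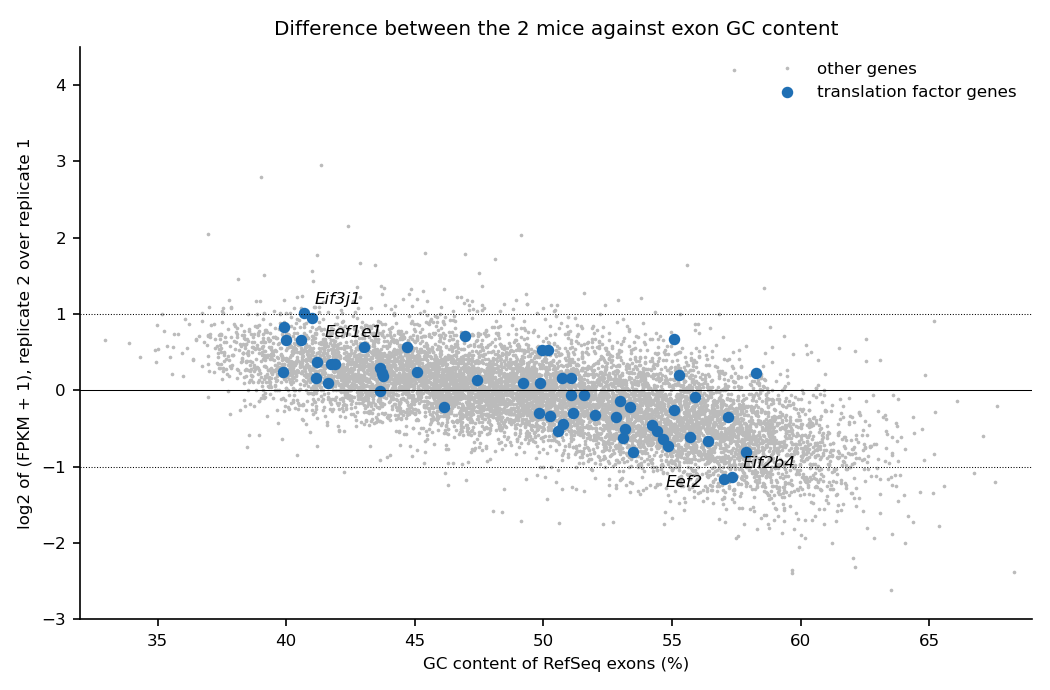
Log2 ratio of exon FPKM + 1 between replicate 2 and replicate 1 against the GC content of RefSeq exons (%), with the detected factor genes as large points and other detected genes in grey; dotted lines mark 2-fold. *Eef2* and *Eif2b4* lie at the GC-rich lower end and *Eif3j1* and *Eef1e1* at the GC-poor upper end.

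Many mRNAs of the translation machinery start with a C followed by a run of pyrimidines, the terminal oligopyrimidine motif through which mTOR controls their translation. RefSeq promoters (GRCm38.p6, 250 bases before to 50 after the annotated start) were matched for 44 of the 56 detected factor genes. A C followed by at least 4 C or T on the sense strand, starting within 10 bases of the start, was present in 13 of 44 (29.5%), compared with 33.3% of all 27025 genes and 36.2% of 7850 detected genes. By this pattern, the share in the factor genes was thus not above that of other genes. The pattern is loose, matching 33.3% of all genes, and rests on annotated starts. It therefore cannot decide whether the factor mRNAs begin with the motif more often than others. The annotated first base was itself a C followed by at least 4 C or T in 2 of 44, *Eif2s3x* and *Eif3f* (4.55%, compared with 3.01% of all genes). In both, the run began upstream of that base. The 13 genes had a median exon FPKM of 8.8 and 8.3, and the other 31 had 25.7 and 20. The annotated starts of *Eif3f* and *Eif2s3x* are shown for this reason. That of *Eef1a1* is shown as a known mRNA of this type and the factor gene with the highest mean. In *Eef1a1* the run begins 5 bases before the annotated start. Whether its mRNA begins within this run was not measured, so the run is no evidence of its pyrimidine start. Each window has 20 bases on each side of the annotated start (sense strand, 5′ to 3′), with the run in capitals.
Eef1a1, chr9:78481705-78481744, minus strand: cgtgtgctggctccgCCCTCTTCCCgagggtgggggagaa
Eif3f, chr7:108934395-108934434, plus strand: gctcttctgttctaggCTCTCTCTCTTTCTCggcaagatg
Eif2s3x, chrX:94212632-94212671, minus strand: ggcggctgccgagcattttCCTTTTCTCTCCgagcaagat

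The study is about promoters bound by CREB and enhancers bound by STAT5, so the sequences both factors recognise were searched on both strands of the same windows. The CRE sequence TGACGTCA, which reads the same on both strands, was present in 1 of 44 factor promoters (2.27%), compared with 2.03% of all genes and 3.69% of detected genes. It lies at the RefSeq annotated start of *Eef2*, with its first base at position 3 of the annotated transcript, and is printed in capitals. Where the RNA begins in this tissue was not measured.
Eef2, chr10:81176617-81176656, plus strand: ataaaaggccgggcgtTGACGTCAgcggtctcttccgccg
The STAT5 sequence TTCNNNGAA was present in 5 of 44 (11.4%), namely *Eef1e1*, *Eef2k*, *Eif3c*, *Eif3g* and *Eif4e*, compared with 9.55% of all genes and 8.24% of detected genes. A match of letters is a description and does not show binding.

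Genes that control the factors were taken from a list of 36, of which 33 were detected, with a median mean exon FPKM of 8.6. Of these 33 genes, 2 differed more than 2-fold between the mice, while 5.9% of all detected genes did so. They were *Ddit3* (4.0 and 1.1) and *Dohh* (14.8 and 3.5), and both were lower in replicate 2. After the GC correction their log2 ratios were −0.85 and −0.91, so neither was then past 2-fold. Among the eIF2 kinases and stress genes, all 8 were detected. *Eif2ak4* was the lowest of the 4 kinases at 2.5 and 2.1, *Eif2ak3* was highest in replicate 1 at 9.9, and *Eif2ak2* was highest in replicate 2 at 10.4. All 4 were below their substrate *Eif2s1* in both mice. *Atf4*, the transcription factor translated when eIF2 is phosphorylated, had 164.0 and 160.0, whereas its target *Ddit3* was low. *Ppp1r15b*, a phosphatase subunit that reverses eIF2 phosphorylation, had 47.6 and 60.9.

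All 11 genes of mTOR and MNK signaling were detected. *Pdcd4*, which encodes an inhibitor of eIF4A, was highest at 374.6 and 362.8, above *Eif4a1* and *Eif4a2* together in both mice. The *Eif4a1* exon value is uncertain because of its near-identical copies, and so is this comparison. *Rheb*, the activator of mTOR, had 51.6 and 60.5, while *Mtor* had 5.4 and 4.2 and *Rptor* 3.9 and 2.6. Of the eIF4E kinases, *Mknk2* had 50.3 and 26.8 and *Mknk1* 4.1 and 2.8. *Larp1*, which binds mRNAs with a pyrimidine start, had 23.7 and 21.7.

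Of the 8 genes of poly(A) binding and termination, 7 were listed in the tables and detected, and *Gspt2* was not analysed here. *Paip2*, an inhibitor of the poly(A)-binding protein, had 47.1 and 56.5, and *Pabpc1* itself had 28.6 and 47.4. The release factor *Etf1* had 32.7 and 33.3, its partner *Gspt1* 19.0 and 27.2, and the ribosome recycling factor *Abce1* 22.1 and 43.8. The enzymes that modify eIF5A and eEF2 were low, with a group median of 2.8 and 2.5. *Dhps*, which starts the hypusine modification, had 2.8 and 3.9 beside 65.1 and 76.6 for its substrate *Eif5a*, and *Dph3*, of the diphthamide pathway of eEF2, had 10.9 and 12.1.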

How the data were processed

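Total RNA of L10 mammary tissue was sequenced by the authors from 2 WT/wTbrg4 mice. Per the labels and methods, reads were mapped to mm10 with STAR, counted with HTSeq over the merged exons and the introns of each gene, and converted by DESeq2 to the deposited FPKM, rounded to 1 decimal. Tool versions, the treatment of reads with several positions and the scaling total are not given in the sources used here. The other samples of the series are not analysed here.

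Factor genes and related lists were chosen with earlier results of these data known. Any factor gene could be named, with values for the highest and lowest of a class, paralogs, and genes past 2-fold or with introns above exons. Of 20550 genes, 35 without a usable symbol were left out. Gene models, GC content and coding sequences came from RefSeq (GRCm38), which matched all 61 factor genes, and snoRNA genes from GENCODE M21. Coding sequences were aligned to the genome with minimap2 2.31. A lowess fit over 30% of genes was used for GC correction and was tested on simulated data. Identity of paralogs was computed on coding sequences, since protein sequences were not used here. Python 3.11.15, Biopython 1.88, statsmodels 0.14.6, scipy 1.17.1, pandas 2.3.3, matplotlib 3.10.9 and numpy 2.4.6 were used. Values are given per mouse or as means ± SD. Other scalings, pseudocounts, filters on low values and definitions of a copy were tried.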

Additional observations from a re-analysis of the deposited data

How the results depend on the processing

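Of 106 values recomputed under alternatives, 89 did not move. A measured value moved if it changed by at least 1 SD of the 2 mice (0.1 for the median log2 difference between them). A count moved if it changed by more than 1.5-fold. For class sums and paralog ratios, leaving out 1 of 2 mice always changes the mean by less than 1 SD. The same holds for the geometric mean of class sums. These alternatives could not move, so the 89 is no measure of how stable the values are. No paired analysis was possible because there was 1 group and no result came from a test. Rescaling each mouse to a sum of 1000000 lowered the mean class sums from 424.9 to 374.1 (eIF4), 365.3 to 319.3 (eIF3), 186.3 to 155.8 (start codon and ternary complex), 71.2 to 59.9 (eIF5A), 62.8 to 55.5 (modifiers), 53.5 to 45.9 (eIF4E binding) and 2744 to 2439 (all). GC correction left 1 factor past 2-fold in place of 3 (1.79%, beside 1.91% of all genes). Equal sums over all genes gave 27 factors past 2-fold and moved the median log2 difference between the mice from 0.04 to −0.95. The median log2 intron to exon ratio of −4.39 became −3.22 with a pseudocount of 1 and −4.98 for genes of at least 10 FPKM. A pseudocount of 1 changed the ratios *Eef1a1* to *Eef1a2* from 2218 to 567.6, *Eif5a* to *Eif5a2* from 204.3 to 53.1, *Eif4g1* to *Eif4g3* from 10.8 to 9.76 and *Eif1* to *Eif1b* from 1.15 to 1.13. Lowering the copy identity to 90% raised the genes with a copy from 15 to 23. The use of equal sums for the 2-fold count, the *Eif1* ratio and the 99% identity split were chosen after seeing the data. Depth is unknown, and values under 1 FPKM are limited by rounding.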
